A study of Zea mays with 21 samples.

Results

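The comparison described here set maize root tips after 10 h of waterlogging (WS_10h) against root tips taken before it (WS_0h). It consists of 6 of the 21 libraries of the series, 3 WS_10h and 3 WS_0h, chosen by their labels alone. All plants were B73, a maize inbred line, grown to the second leaf stage, and each library held 10 primary root tips collected together and mixed. WS_10h plants had stood with water above the substrate for 10 h, and WS_0h plants had not been flooded. The other 5 time points were 2, 4, 6, 8 and 12 h of waterlogging. Stress began at the same morning hour for all plants and no unflooded plants were taken later in the day. The length of flooding and the hour of sampling therefore cannot be told apart in any comparison of time points.

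Waterlogged roots run short of oxygen, because gases move slowly through water. When respiration in the mitochondria is limited, plant cells draw ATP from glycolysis and regenerate the NAD+ it needs by fermentation, in which pyruvate decarboxylase turns pyruvate into acetaldehyde and alcohol dehydrogenase turns that into ethanol. The gas ethylene also builds up in flooded tissue, and ethylene response factors of the AP2-EREBP family are known from Arabidopsis and rice to switch on genes of the low-oxygen response.

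The values are TPM of protein-coding genes (PCgenes), a transcript abundance in which read counts are corrected for gene length and scaled to a fixed total per library. Of 23175 PCgenes listed, 22229 had a mean TPM above 1 over the 6 libraries and were tested with limma on log2(TPM + 1). Calls of up- or down-regulation needed a p under 0.05 after Benjamini-Hochberg adjustment and a log2 difference, WS_10h minus WS_0h, beyond 1 or -1. On this scale the change of a gene with few TPM is understated. Summed TPM of the listed PCgenes lay between 633732 and 643670 in the WS_10h libraries, against 546472 to 575678 in the WS_0h libraries, so the groups did not overlap in this total. Across PCgenes, a WS_10h library correlated with the other two at a mean Pearson r of 0.983 to 0.986, and a WS_0h library with the other two at 0.974 to 0.980. The closest of all 21 libraries to WS_10h replicates 1 and 3 were WS_12h libraries. Names come from the paper that reported the data, from which 61 PCgenes with a role were taken. Another bHLH and another bZIP gene were left out, because their printed IDs do not have the number of digits of the IDs in the files. Of the 61, 58 were listed and 54 tested. Many were chosen in the study for their change in these same libraries, so their direction is not independent evidence. Root tip identity was not checked with marker genes, because the sources used here pair no marker names with these IDs.

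After 10 h of waterlogging 1812 PCgenes (8.15% of those tested) were up-regulated and 1393 (6.27%) down-regulated, 3205 (14.4%) in all. Increases were larger than decreases on the log2(TPM + 1) scale, where a fall is bounded by the WS_0h level. Among the down-regulated PCgenes, the WS_0h mean had a median of 12.6 TPM. With a pseudocount of 0.1 TPM, 2140 PCgenes were up-regulated and 1950 down-regulated. How far the scale contributes was not tested. A log2 difference above 3 was called for 267 PCgenes and one below -3 for 24, and the median was 1.66 among the up-regulated and -1.39 among the down-regulated, against -0.05 over all PCgenes tested. All WS_10h libraries lay above all WS_0h libraries for 1809 of the 1812, and below them for 1377 of the 1393, while over all PCgenes tested 24.8% lay wholly above and 27.6% wholly below.

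In the pool of listed transcripts, the up-regulated PCgenes held 23.4%, 22.5% and 20.5% of the TPM in the WS_10h libraries, against 4.46%, 4.96% and 4.57% in the WS_0h libraries. The down-regulated PCgenes held 2.01%, 2.31% and 2.04% in the WS_10h libraries, against 6.68%, 8.85% and 7.06% in the WS_0h libraries. These shares describe the PCgenes selected by the call itself and were not tested. Of the summed gain in mean TPM, 18.5% lay in the 10 PCgenes that gained most. In tissue samples of mixed cells, a change in the share of a cell type and a change in RNA per cell cannot be told apart.

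**Figure D1:**
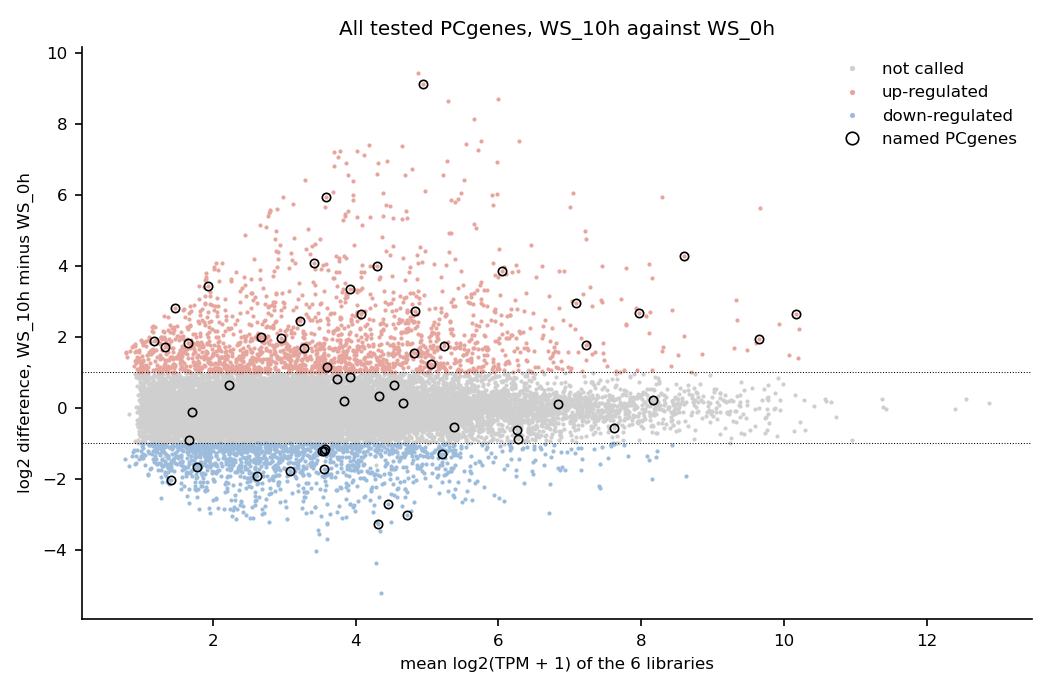
Each point is 1 of 22229 tested PCgenes, with the mean log2(TPM + 1) of the 6 libraries on the x axis and the log2 difference, WS_10h minus WS_0h, on the y axis. Coloured points are the 1812 up-regulated and 1393 down-regulated PCgenes, dotted lines mark a difference of 1 and -1, and open circles are the named PCgenes. The upper cloud reaches 9.44 and the lower one -5.22.

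All 7 named genes of glycolysis and fermentation were up-regulated at WS_10h, as were 8.15% of all PCgenes tested. The log2 differences of the 7 genes ran from 1.78 to 9.15 with a median of 2.66. Together the 7 genes held 1.37%, 1.22% and 1.20% of the listed TPM in the WS_10h libraries, against 0.245%, 0.171% and 0.213% in the WS_0h libraries. For each of them, all 3 WS_10h libraries lay above all 3 WS_0h libraries, as for 24.8% of all PCgenes tested.

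The largest change belonged to Zm00001d010588, which encodes pyruvate decarboxylase1, the enzyme at the entry to ethanol fermentation. It had 803, 685 and 712 TPM in the WS_10h libraries, against 0.33, 0.31 and 0.24 TPM in the WS_0h libraries. The gene was close to silent before the stress and among the abundant transcripts after 10 h, with a log2 difference of 9.15 ± 0.11 (SE; limma with Benjamini-Hochberg, adjusted p 5e-09). Zm00001d028759 encodes pyruvate decarboxylase isozyme 3 and had 1844, 1685 and 1605 TPM in the WS_10h libraries, against 85.9, 85.9 and 90.9 TPM in the WS_0h libraries. Unlike pyruvate decarboxylase1, this isozyme was already present before flooding, and its mean was 19.5 times higher at WS_10h (log2 difference 4.27 ± 0.12, adjusted p 1.87e-07 by limma with Benjamini-Hochberg). At WS_10h its mean of 1711 ± 122 TPM still exceeded the 733 ± 61.8 TPM of pyruvate decarboxylase1 (SD, n = 3 libraries each).

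Among the glycolysis genes, the highest level was that of Zm00001d017121, a glyceraldehyde-3-phosphate dehydrogenase, which makes the NADH of the pathway. It had 3148, 2723 and 2753 TPM in the WS_10h libraries, against 567, 336 and 509 TPM in the WS_0h libraries. The spread before stress was wide and the groups were still far apart, with a log2 difference of 2.64 ± 0.21 (adjusted p 4.13e-05, limma with Benjamini-Hochberg). Zm00001d037689 encodes hexokinase7, and hexokinases phosphorylate the glucose that enters the pathway. It had 194, 291 and 281 TPM in the WS_10h libraries, against 11.6, 17.3 and 21.6 TPM in the WS_0h libraries. WS_10h replicate 1 was the lowest of its group here and the highest in pyruvate decarboxylase1, pyruvate decarboxylase isozyme 3, phosphohexose isomerase 1, aldolase2 and the dehydrogenase. The log2 difference of hexokinase7 was 3.87 ± 0.24.

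Phosphohexose isomerase 1 (Zm00001d034256), which interconverts glucose and fructose phosphates, had 710.3, 577 and 602 TPM in the WS_10h libraries, against 83.7, 103 and 109.6 TPM in the WS_0h libraries (log2 difference 2.66 ± 0.15). Aldolase2 (Zm00001d012103), which splits the sugar bisphosphate into trioses, had 1829, 1508 and 1391 TPM in the WS_10h libraries, against 503, 329 and 409.9 TPM in the WS_0h libraries (log2 difference 1.94 ± 0.19). Pyruvate kinase (Zm00001d052494), the last step before pyruvate, changed least of the 7, at 274, 284 and 274 TPM in the WS_10h libraries, against 88.5, 66.5 and 86.8 TPM in the WS_0h libraries (log2 difference 1.78 ± 0.14). The 7 genes thus rose by unequal amounts, with the decarboxylases and hexokinase7 ahead of the other 4. The highest adjusted p among them was 1.32e-04, for aldolase2 (limma with Benjamini-Hochberg).

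**Figure D2:**
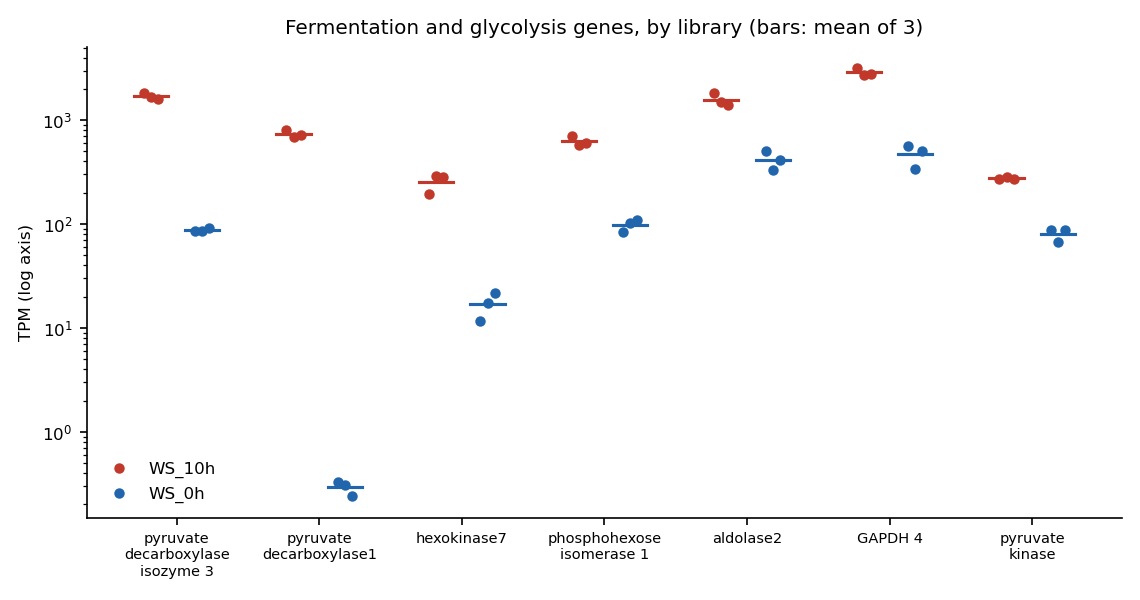
TPM on a log axis of the 7 named fermentation and glycolysis genes, with 1 point for each library and a bar for the mean of 3. WS_10h libraries (left of each pair) lie above WS_0h libraries in all 7 genes, and pyruvate decarboxylase1 is the only one of them under 1 TPM at WS_0h.

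Of the tested transcription factors taken from the paper by family, all 2 AP2-EREBP, 3 NAC, 5 bHLH or HLH and 4 bZIP genes were up-regulated and both MYB genes were down-regulated. Over all PCgenes tested, 8.15% were up-regulated and 6.27% down-regulated. The paper names most of these transcription factors for their change in these same libraries. The AP2-EREBP gene Zm00001d040651 had 110.8, 92.5 and 79.9 TPM in the WS_10h libraries, against 0.66, 0.39 and 0.54 TPM in the WS_0h libraries. Its log2 difference of 5.95 ± 0.14 (limma with Benjamini-Hochberg, adjusted p 8.93e-08) was the second largest among the named PCgenes. The other member, Zm00001d031728, had 11.9, 12.2 and 10.4 TPM in the WS_10h libraries, against 0.08, 0.11 and 0.31 TPM in the WS_0h libraries. Both were near 0 before the stress. Along with pyruvate decarboxylase1 they were the 3 named members of a set of 54 PCgenes that lay under 1 TPM in every WS_0h library and above 10 TPM in every WS_10h library. The log2 difference of Zm00001d031728 was 3.42 ± 0.13, and 5.54 with a pseudocount of 0.1 TPM.

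NAC proteins are plant transcription factors with many members that respond to stress. Zm00001d013003 was the most abundant of the 3 listed, at 364, 411 and 356 TPM in the WS_10h libraries, against 27.8, 53.0 and 73.3 TPM in the WS_0h libraries (log2 difference 2.95 ± 0.30). Zm00001d012527 had 38.5, 56.4 and 49.0 TPM in the WS_10h libraries, against 2.15, 5.23 and 4.27 TPM in the WS_0h libraries (3.37 ± 0.26). For Zm00001d000112 the values were 88.4, 70.5 and 50.8 TPM in the WS_10h libraries, against 19.1, 26.1 and 15.4 TPM in the WS_0h libraries (1.74 ± 0.24). None of the 3 had overlapping groups (24.8% of all PCgenes tested lay wholly above), and the highest adjusted p was 7.68e-04 (limma with Benjamini-Hochberg, Zm00001d000112). Another named NAC gene, Zm00001d019027, was not analysed here.

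The 5 bHLH and HLH genes tested rose by 1.16 to 2.66 on the log2 scale. Zm00001d027987 had 37.3, 50.6 and 37.0 TPM in the WS_10h libraries, against 5.88, 5.98 and 5.22 TPM in the WS_0h libraries, a log2 difference of 2.66 ± 0.15. Zm00001d042263 averaged 21.7 ± 6.95 TPM at WS_10h and 3.0 ± 0.391 TPM at WS_0h (SD, n = 3 each). Zm00001d013130 and Zm00001d043699 stayed low, at means of 3.50 and 3.55 TPM at WS_10h and 0.173 and 0.377 TPM at WS_0h. Their log2 differences, 1.88 and 1.73, were 3.64 and 2.96 with a pseudocount of 0.1 TPM. The call of the HLH gene Zm00001d047017 rested on single libraries: its log2 difference of 1.16 ± 0.30 was 0.77 without WS_0h replicate 1, and 1.07 with an adjusted p of 0.0588 (limma with Benjamini-Hochberg) without WS_10h replicate 1. WS_0h replicate 1 was its lowest library, at 3.70 TPM beside 8.61 and 10.6 TPM.

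All 4 bZIP genes tested rose, by 1.54 to 2.01 on the log2 scale. Zm00001d039065 had 11.8, 11.8 and 11.9 TPM in the WS_10h libraries, against 1.69, 2.69 and 2.30 TPM in the WS_0h libraries (log2 difference 2.01 ± 0.14). The WS_10h libraries of this gene were nearly identical, while those of Zm00001d017911 spread from 3.37 to 8.78 TPM at WS_10h, against 0.50 to 0.86 TPM at WS_0h (1.83 ± 0.28). Zm00001d041920, which encodes PosF21, averaged 47.5 ± 7.93 TPM at WS_10h and 15.6 ± 2.21 TPM at WS_0h, and Zm00001d005962 averaged 17.2 ± 6.78 TPM at WS_10h and 4.67 ± 2.06 TPM at WS_0h (SD, n = 3 each). No groups overlapped among the 4 (24.8% of all PCgenes tested lay wholly above), and the highest adjusted p was 0.00371 (limma with Benjamini-Hochberg, Zm00001d005962).

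All 8 tested genes of ethylene synthesis and response had a higher mean at WS_10h, and 5 of them passed the fold threshold. Over all PCgenes tested, 45.3% had a log2 difference above 0 and 8.15% were up-regulated. Synthesis of ethylene ends in 2 steps, by 1-aminocyclopropane-1-carboxylate (ACC) synthase and ACC oxidase. The ACC synthase Zm00001d026060 had 18.1, 16.7 and 15.2 TPM in the WS_10h libraries, against 5.66, 10.7 and 12.0 TPM in the WS_0h libraries. All WS_10h libraries lay higher, but the log2 difference of 0.81 ± 0.24 was under the fold threshold (adjusted p 0.0271, limma with Benjamini-Hochberg). The ACC oxidase Zm00001d024843 stayed under it too, at 28.3, 29.9 and 26.3 TPM in the WS_10h libraries, against 12.5, 17.4 and 24.6 TPM in the WS_0h libraries (0.65 ± 0.21). The other 3 named ACC oxidases had too low a mean to be tested. Zm00001d024850 ran from 0.59 to 1.0 TPM at WS_10h, against 0.13 to 0.96 TPM at WS_0h, Zm00001d024851 from 1.0 to 1.58 TPM at WS_10h, against 0.17 to 1.41 TPM at WS_0h, and Zm00001d024852 from 0.24 to 0.55 TPM at WS_10h, against 0.06 to 0.21 TPM at WS_0h.

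Proteins of the EIN3 and EIL family are transcription factors of ethylene signalling. The 2 named members differed in their values: Zm00001d016924 (ETHYLENE INSENSITIVE 3-like 5) had 6.05, 6.56 and 6.30 TPM in the WS_10h libraries, against 0.04, 0.08 and 0.02 TPM in the WS_0h libraries. It was up-regulated with a log2 difference of 2.80 ± 0.11 (5.47 with a pseudocount of 0.1 TPM). Zm00001d020939 (EIL transcription factor) was more abundant and not called, at 17.7, 20.3 and 27.8 TPM in the WS_10h libraries, against 12.0, 20.6 and 19.4 TPM in the WS_0h libraries. Its groups overlapped, and its log2 difference was 0.33 ± 0.23. The difference between the responses of these genes was not tested.

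All 4 further genes that the paper links to ethylene responses were up-regulated, as were 8.15% of all PCgenes tested. Zm00001d027622, a C3HC4-type RING finger protein, had 49.9, 38.8 and 41.6 TPM in the WS_10h libraries, against 1.58, 1.63 and 1.57 TPM in the WS_0h libraries (log2 difference 4.09 ± 0.12). Zm00001d032849, a RING/U-box protein, had 78.6, 87.8 and 68.5 TPM in the WS_10h libraries, against 2.74, 5.18 and 4.07 TPM in the WS_0h libraries (4.01 ± 0.19). RING and U-box domains are typical of ubiquitin ligases, which mark proteins for breakdown. Zm00001d002896 (TUB-transcription factor 4) averaged 72.7 ± 4.65 TPM at WS_10h and 10.3 ± 2.35 TPM at WS_0h, and Zm00001d027302 (SKP1-like protein 21, of a family that builds ubiquitin ligase complexes) 14.4 ± 1.65 TPM at WS_10h and 2.95 ± 0.397 TPM at WS_0h (SD, n = 3 each). The highest adjusted p of these 4 was 1.52e-05 (limma with Benjamini-Hochberg, Zm00001d027302).

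For abscisic acid, a hormone of water stress, Zm00001d018819 encodes nine-cis-epoxycarotenoid dioxygenase 5, of the family that cleaves carotenoids in its synthesis. It had 0.92, 1.27 and 0.64 TPM in the WS_10h libraries, against 2.12, 6.65 and 8.37 TPM in the WS_0h libraries. The gene was down-regulated with a log2 difference of -1.66 ± 0.37 (adjusted p 0.00861, limma with Benjamini-Hochberg), although WS_0h replicate 1 lay close to the WS_10h libraries. Zm00001d012263, which encodes SAPK4, a kinase of a family that acts in abscisic acid signalling, stayed under the fold threshold at a mean of 4.84 ± 0.761 TPM at WS_10h and 2.74 ± 0.208 TPM at WS_0h (SD, n = 3 each; log2 difference 0.64). Zm00001d037719 (CAPIP1) was up-regulated, at 46.9, 54.0 and 49.4 TPM in the WS_10h libraries, against 18.1, 26.0 and 19.2 TPM in the WS_0h libraries (1.23 ± 0.15).

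**Figure D3:**
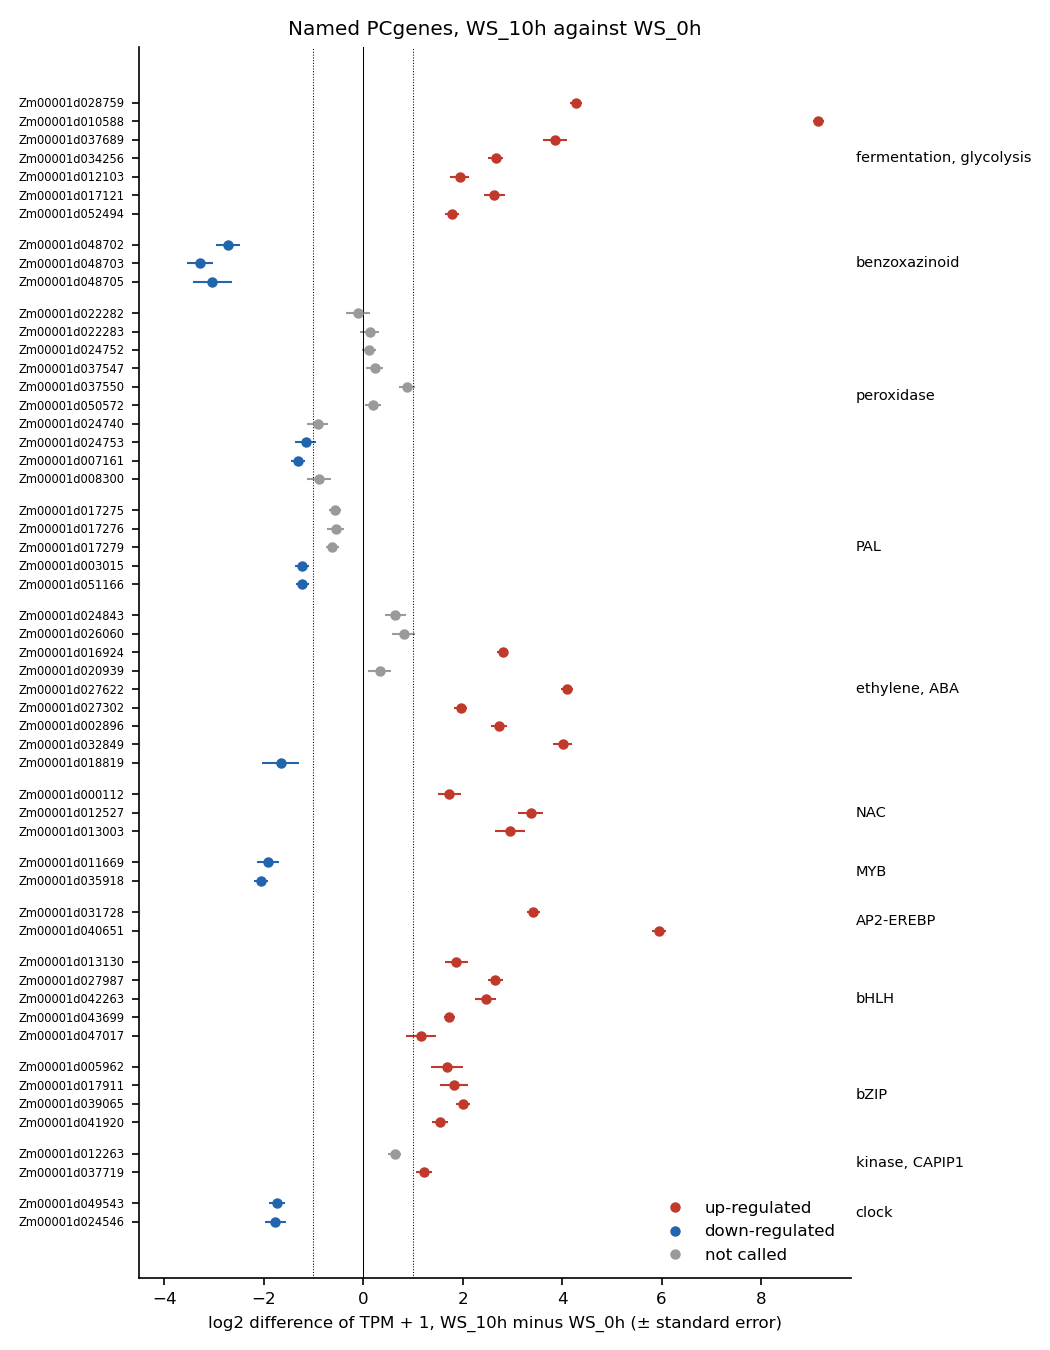
The log2 difference of TPM + 1, WS_10h minus WS_0h, of the 54 named PCgenes tested (points) with standard errors from limma (lines), grouped by role. Of these, 27 were up-regulated, 12 down-regulated and 15 not called, and dotted lines mark 1 and -1. Peroxidases and phenylalanine ammonia-lyases (PAL) lie between -1.31 and 0.88.

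Genes of 3 branches of specialized metabolism were lower at WS_10h or did not pass the threshold. Benzoxazinoids are defence compounds of maize and other grasses, made from indole by a chain of cytochrome P450 enzymes. All 3 listed genes of this pathway were down-regulated, as were 6.27% of all PCgenes tested. Zm00001d048703 (cytochrome P450 71C1) had 8.38, 5.02 and 3.55 TPM in the WS_10h libraries, against 57.2, 52.5 and 75.0 TPM in the WS_0h libraries, a log2 difference of -3.28 ± 0.26. Zm00001d048705 (cytochrome P450 71C3) had 16.1, 6.12 and 5.42 TPM in the WS_10h libraries, against 82.1, 49.0 and 101.2 TPM in the WS_0h libraries (-3.03 ± 0.39). Zm00001d048702 (indolin-2-one monooxygenase-like) had 8.58, 9.56 and 5.23 TPM in the WS_10h libraries, against 49.7, 45.9 and 74.9 TPM in the WS_0h libraries (-2.72 ± 0.24). In each gene the highest WS_10h library lay under the lowest WS_0h library, as for 27.6% of all PCgenes tested. The highest adjusted p of the 3 was 5.65e-04 (limma with Benjamini-Hochberg). WS_0h replicate 3 was the highest library in all 3. Zm00001d048710, named as benzoxazinone synthesis 2, was not analysed here.

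Phenylalanine ammonia-lyase opens the phenylpropanoid pathway, which leads to lignin and to many phenolic compounds. All 5 named genes had lower values in every WS_10h library than in any WS_0h library, as did 27.6% of all PCgenes tested. Of the 5, 2 passed the fold threshold, as did 6.27% of all PCgenes tested in this direction. Zm00001d003015 had 6.80, 6.74 and 6.03 TPM in the WS_10h libraries, against 17.5, 18.8 and 13.8 TPM in the WS_0h libraries. Zm00001d051166 had 6.89, 7.14 and 6.09 TPM in the WS_10h libraries, against 15.9, 20.1 and 15.3 TPM in the WS_0h libraries. Both fell by 1.22 on the log2 scale (adjusted p 2.57e-04 and 2.24e-04, limma with Benjamini-Hochberg). The other 3 were more abundant and less changed. Zm00001d017275 had 169, 158 and 154 TPM in the WS_10h libraries, against 220.1, 249 and 243 TPM in the WS_0h libraries (-0.56 ± 0.12), and Zm00001d017279 and Zm00001d017276 had log2 differences of -0.62 and -0.55.

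Class III peroxidases act in the cell wall and on hydrogen peroxide, and they form a large family. Of 10 tested, 2 were down-regulated and 8 were not called, and the median log2 difference was 0.01. Over all PCgenes tested, 6.27% were down-regulated and 8.15% up-regulated. Zm00001d007161 fell to 21.1, 27.7 and 19.7 TPM in the WS_10h libraries, against 53.1, 57.4 and 62.5 TPM in the WS_0h libraries (-1.31 ± 0.15, adjusted p 2.78e-04 by limma with Benjamini-Hochberg). Zm00001d024753 had 4.98, 9.83 and 6.77 TPM in the WS_10h libraries, against 14.1, 19.3 and 17.2 TPM in the WS_0h libraries (-1.16 ± 0.22), and -0.95 without WS_10h replicate 1, which ends its call. Zm00001d008300 and Zm00001d024740 lay just under the fold threshold at -0.88 and -0.91. The first was called without WS_10h replicate 2 (-1.06) or 3 (-1.03), and the second without WS_0h replicate 3 (-1.15) and with a pseudocount of 0.1 TPM (-1.28).

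In the other direction Zm00001d037550 had 19.2, 20.2 and 19.4 TPM in the WS_10h libraries, against 12.1, 11.3 and 7.65 TPM in the WS_0h libraries, a log2 difference of 0.88 ± 0.16 that was under the fold threshold. The most abundant peroxidase, Zm00001d037547, had 294, 376 and 269 TPM in the WS_10h libraries, against 256, 308 and 233 TPM in the WS_0h libraries, and its groups overlapped. Zm00001d022282, Zm00001d022283, Zm00001d024752 and Zm00001d050572 had log2 differences between -0.10 and 0.20, with overlapping groups. Zm00001d046035 had 0.14, 0.67 and 0.19 TPM in the WS_10h libraries and was listed at 0 in all WS_0h libraries, and it was too low to be tested. Zm00001d007952 was not analysed here. The named peroxidases tested therefore had no common direction at WS_10h. Zm00001d007161, Zm00001d008300, Zm00001d024740 and Zm00001d024753, which the paper groups by co-expression, all had lower values in every WS_10h library than in any WS_0h library. Their log2 differences ran from -1.31 to -0.88, and those of the other peroxidases tested from -0.10 to 0.88. The paper also reports up-regulated peroxidases in another co-expressed group without listing them, so no direction is given for the family.

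The MYB family holds many regulators of specialized metabolism and of development. Zm00001d035918 had 0.14, 0.44 and 0.36 TPM in the WS_10h libraries, against 3.89, 5.03 and 4.33 TPM in the WS_0h libraries. It was nearly lost after 10 h, with a log2 difference of -2.05 ± 0.14, and -3.52 with a pseudocount of 0.1 TPM. Zm00001d011669 had 1.49, 3.07 and 2.09 TPM in the WS_10h libraries, against 8.51, 14.5 and 10.3 TPM in the WS_0h libraries (-1.91 ± 0.23, adjusted p 3.63e-04 by limma with Benjamini-Hochberg).

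CCA1 and LHY are MYB-related proteins of the circadian clock that in Arabidopsis peak around dawn. Both named clock genes were lower at WS_10h, late in the light period, than at WS_0h in the morning. Zm00001d049543 (CCA1) had 5.58, 4.93 and 5.86 TPM in the WS_10h libraries, against 16.5, 25.4 and 20.1 TPM in the WS_0h libraries (log2 difference -1.73 ± 0.16). Zm00001d024546 (LHY) had 3.96, 3.35 and 3.51 TPM in the WS_10h libraries, against 11.0, 20.9 and 13.6 TPM in the WS_0h libraries (-1.77 ± 0.21, adjusted p 3.37e-04 by limma with Benjamini-Hochberg). Their means over the course were 20.7, 15.1, 9.10, 9.8, 5.36, 5.46 and 4.07 TPM for CCA1 and 15.2, 13.2, 11.0, 10.3, 5.13, 3.61 and 2.50 TPM for LHY at 0, 2, 4, 6, 8, 10 and 12 h. Both had their lowest mean at 12 h, and the parts of flooding and of time of day in any of the WS_10h calls cannot be told apart.

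**Figure D4:**
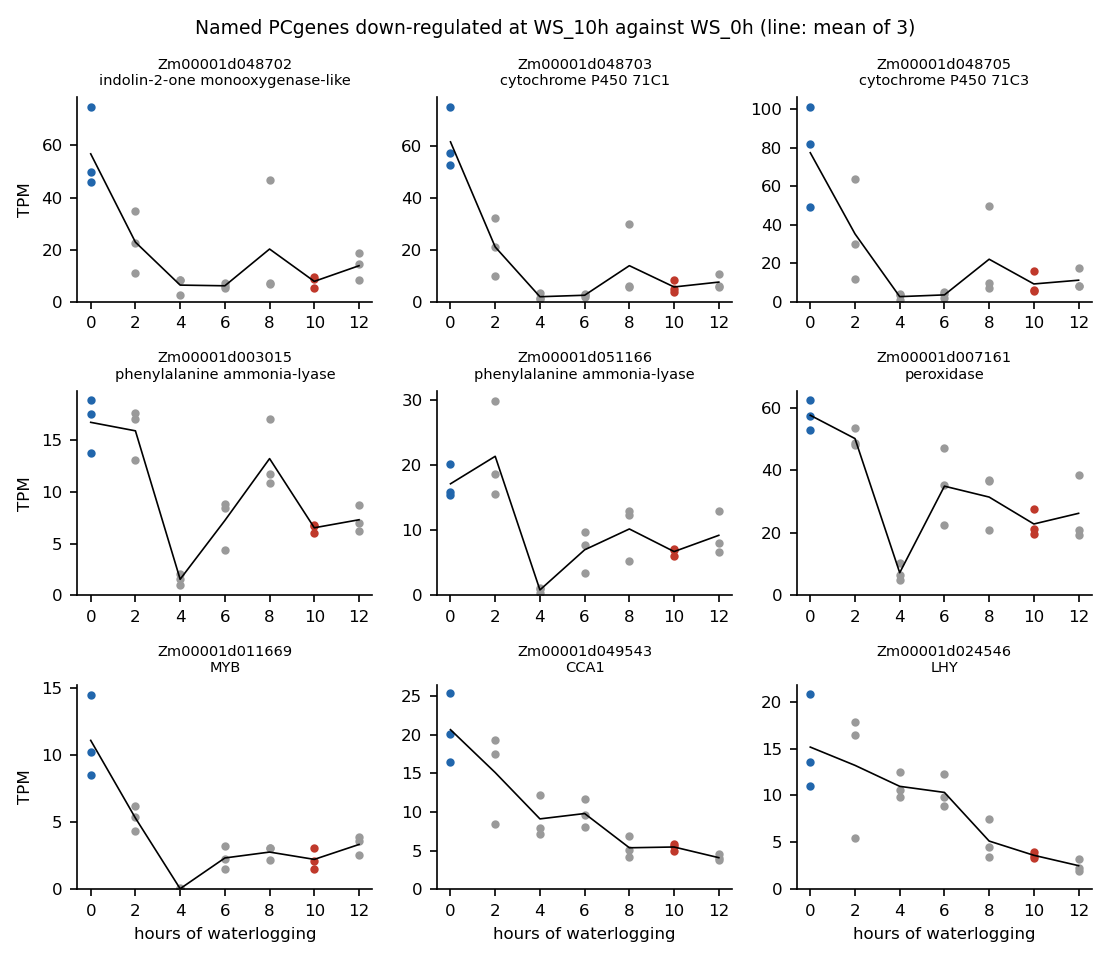
TPM against hours of waterlogging for 9 named PCgenes that were down-regulated at WS_10h, with 1 point for each library and a line through the means of 3. WS_10h libraries are red and WS_0h libraries blue. CCA1 and LHY have their lowest means, 4.07 and 2.50 TPM, at 12 h, while the other 7 have their lowest mean at 4 or 6 h.

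WS_10h was not the time of the largest change for most of these genes. Of the 27 named up-regulated PCgenes, 12 had their highest mean at WS_4h, 11 at WS_6h, and only Zm00001d017911 (bZIP) at WS_10h. Pyruvate decarboxylase1 and glyceraldehyde-3-phosphate dehydrogenase 4 had theirs at WS_12h and Zm00001d027987 (bHLH) at WS_2h. Of the 12 down-regulated, 9 had their lowest mean at WS_4h, 1 at WS_6h and the clock genes at WS_12h. Over all 1812 up-regulated PCgenes, the highest mean under waterlogging was that of WS_10h for 201, at WS_4h for 586 and at WS_6h for 574. These positions are descriptions of means, and differences between neighbouring means were not tested other than below.

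To find where WS_10h differed from the time points beside it, it was compared with WS_8h and WS_12h, each in a fit of its own 6 libraries that left out WS_0h. The hour of sampling also differed between these time points. Against WS_8h, 612 PCgenes (2.78% of 22045 tested) were up-regulated and 177 (0.803%) down-regulated. The counts changed when 1 library was left out, which also leaves the test fewer libraries. Up-regulated PCgenes numbered 411, 314 and 476 without WS_10h replicate 1, 2 and 3. Without WS_8h replicate 1, 2 and 3 they numbered 466, 449 and 1007. Down-regulated PCgenes numbered 99 without WS_10h replicate 3. WS_8h libraries correlated with each other less well than WS_10h libraries did, at a mean r of 0.959 to 0.971.

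Of the 56 named PCgenes tested against WS_8h, 9 were up-regulated and 0 down-regulated (limma with Benjamini-Hochberg), beside 2.78% and 0.803% of all PCgenes tested. These 9 had also been called against WS_0h, but both comparisons use the WS_10h libraries and so do not support each other. Pyruvate decarboxylase1 had 803, 685 and 712 TPM in the WS_10h libraries, against 229.7, 273 and 227 TPM in the WS_8h libraries (log2 difference 1.59 ± 0.16, adjusted p 0.00311 by limma with Benjamini-Hochberg). The NAC gene Zm00001d013003 had 364, 411 and 356 TPM in the WS_10h libraries, against 88.3, 137 and 166 TPM in the WS_8h libraries (1.57 ± 0.23). For Zm00001d039065 (bZIP) the values were 11.8, 11.8 and 11.9 TPM in the WS_10h libraries, against 3.96, 2.82 and 4.23 TPM in the WS_8h libraries (1.47 ± 0.15). All WS_10h libraries lay above all WS_8h libraries in these 9 genes, as they did in 12.8% of the PCgenes tested.

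The other 6 were Zm00001d012527 (NAC, 1.63), Zm00001d027622 (RING finger, 1.5), hexokinase7 (Zm00001d037689, 1.48), Zm00001d016924 (EIN3-like, 1.38), Zm00001d031728 (AP2-EREBP, 1.27) and Zm00001d041920 (PosF21, 1.05). Of the 9 calls, 5 were lost when 1 library was left out. Some fits also added calls: up-regulated named PCgenes numbered 4 to 11 with 1 library left out, and 10 with a pseudocount of 0.1 TPM. The adjusted p (limma with Benjamini-Hochberg) was 0.051 for hexokinase7 and 0.0526 for Zm00001d013003 without WS_10h replicate 2, and between 0.0578 and 0.0945 for Zm00001d016924 and Zm00001d031728 without any 1 of the WS_10h libraries. The log2 differences of these genes in the same fits stayed between 1.231 and 1.505. For Zm00001d041920 the adjusted p was 0.0804 without WS_10h replicate 2, and the log2 difference fell under the threshold without WS_8h replicate 1 (0.92) or WS_10h replicate 3 (0.95).

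The other 5 fermentation and glycolysis genes had log2 differences of 0.27 to 0.75 from WS_8h and were not called. In each of the 5, all WS_10h libraries lay above all WS_8h libraries, as in 12.8% of the PCgenes tested. Their 95% intervals reached from -0.07 to 0.60 for pyruvate kinase (Zm00001d052494) and from 0.06 to 1.25 for aldolase2 (Zm00001d012103), and 4 of the 5 intervals reached above 1. Summed over all 7, the level was 8803, 7753 and 7618 TPM in the WS_10h libraries, against 3955, 4930 and 5667 TPM in the WS_8h libraries. Benzoxazinoid genes were not called (-0.83 to -0.75), and WS_8h replicate 1 stood apart in them, with a sum of 126 TPM over the 3 genes beside 22.4 and 19.8 TPM in the other WS_8h libraries.

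**Figure D5:**
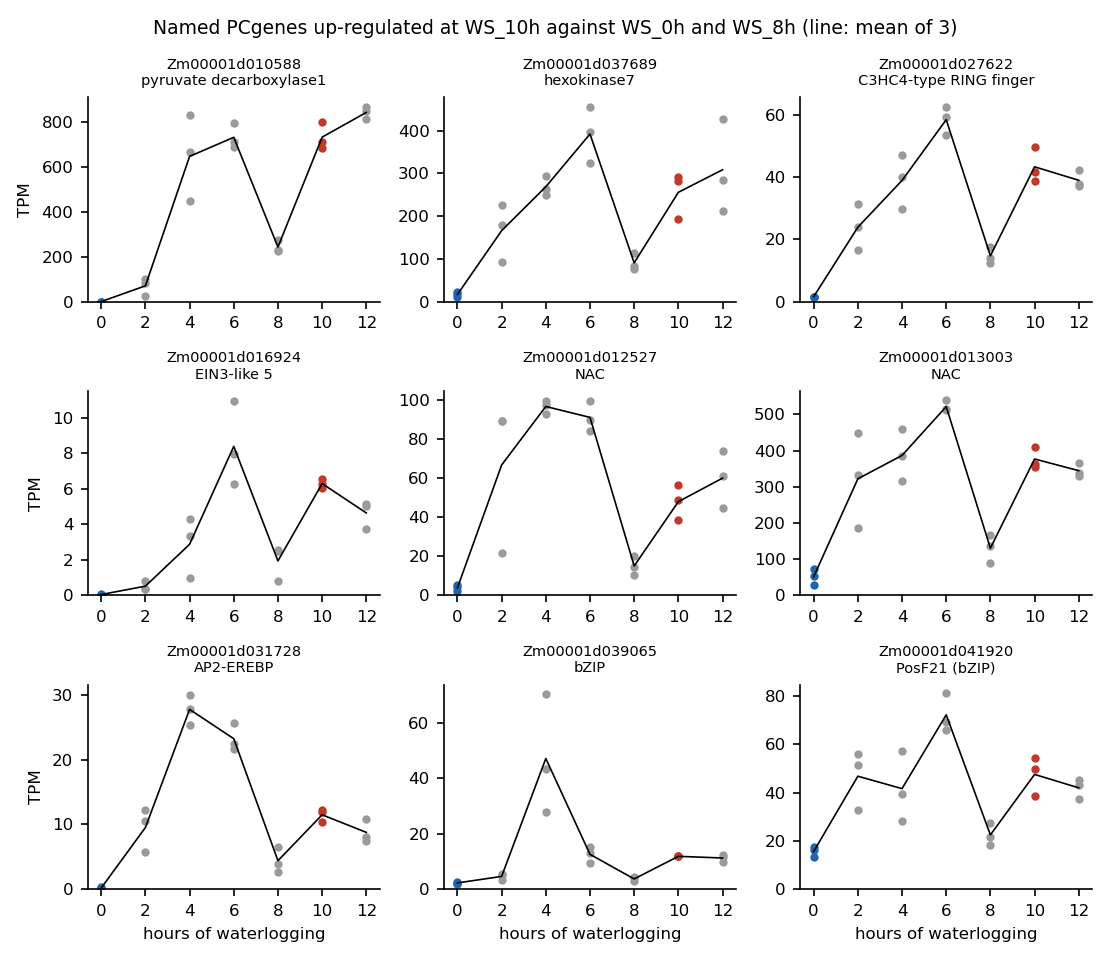
TPM against hours of waterlogging for the 9 named PCgenes that were up-regulated at WS_10h against both WS_0h and WS_8h, with 1 point for each library and a line through the means of 3. WS_10h libraries are red and WS_0h libraries blue. All 9 have a lower mean at 8 h than at 6 h and 10 h, as with pyruvate decarboxylase1 at 732, 243 and 733 TPM.

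Against WS_12h, 0 of 21800 tested PCgenes were called in either direction (0% up and 0% down, limma with Benjamini-Hochberg), and the smallest adjusted p was 0.596. An unadjusted p under 0.05 was found for 1037 PCgenes (4.76%), and 39 differed by more than 1 on the log2 scale without passing the test. Among 54 named PCgenes the log2 differences ran from -0.72 to 0.47. For pyruvate decarboxylase1 the difference was -0.20 with a 95% interval from -0.48 to 0.07, for pyruvate decarboxylase isozyme 3 it was 0.15 (-0.13 to 0.43), and for Zm00001d013003 (NAC) 0.13 (-0.14 to 0.39). These intervals leave room for smaller changes. For Zm00001d048702 of the benzoxazinoid pathway the interval was wider, from -1.40 to -0.05 around -0.72. Summed fermentation and glycolysis levels overlapped, at 8803, 7753 and 7618 TPM in the WS_10h libraries, against 7772, 8265 and 7979 TPM in the WS_12h libraries.

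Among the PCgenes without a name in the sources used here, Zm00001d022084 and Zm00001d045391 had the largest increases at WS_10h and Zm00001d013261 and Zm00001d004310 the largest decreases. Zm00001d022084 had 826, 734 and 769 TPM in the WS_10h libraries, against 0.20, 0.05 and 0.10 TPM in the WS_0h libraries (log2 difference 9.44 ± 0.11). Zm00001d045391 had 1438, 1309 and 1194 TPM in the WS_10h libraries, against 1.30, 2.86 and 2.39 TPM in the WS_0h libraries (8.72 ± 0.20). Before the stress Zm00001d022084 was close to silent and Zm00001d045391 was low but above 1 TPM in every library. After 10 h both were abundant. Zm00001d013261 had 2.49, 3.40 and 1.42 TPM in the WS_10h libraries, against 127, 153 and 97.0 TPM in the WS_0h libraries (-5.22 ± 0.24). Zm00001d004310 had 2.45, 8.99 and 1.32 TPM in the WS_10h libraries, against 41.1, 211 and 76.6 TPM in the WS_0h libraries (-4.36 ± 0.66, adjusted p 0.00126 by limma with Benjamini-Hochberg), with WS_0h replicate 2 far above the other two.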

How the data were processed

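The authors trimmed reads, aligned them to B73 RefGen_v4 with Hisat2 2.0.5, counted uniquely mapped reads with featureCounts and deposited TPM of the PCgenes they counted as expressed. Genes of families such as the peroxidases can share reads between near-identical copies, which makes their values less certain. The deposited TPM hold no read depth, so no counting error is given and precision rests on 3 libraries a group. The label gives no culture or pot for a library, so p-values measure the spread between these libraries. The lncRNA values were not used. Libraries were grouped by label.

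In each comparison, PCgenes whose 6 libraries averaged more than 1 TPM were fitted on log2(TPM + 1) by limma (3.58.1, R 4.3.3; two-sided, variance trend, no replicate block). Same-numbered WS_10h and WS_0h libraries deviated together from their group means (correlations 0.337, 0.304 and 0.413 across PCgenes). For WS_10h and WS_12h these correlations were -0.175, -0.174 and 0.273. The labels give no pairing, and whether the numbers pair the libraries was not tested. The p-values given come from fits without a replicate block. Against WS_0h, the fit with a replicate block changed no call of a named PCgene. Against WS_8h it ended none of the calls of named PCgenes.

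Named genes were the PCgenes to which the paper gives a role, other than 2 with a malformed ID, and, of those without a name, the 2 highest and 2 lowest log2 differences among called PCgenes whose groups do not overlap. PCgenes that the paper names only as partners of a lncRNA, without stating what they encode, were not included. Members and lists were chosen with earlier results of these data known. Lists and promoter motifs that need gene descriptions or sequences could not be run with the tables used here. The scripts were tested on simulated data. Alternatives were a pseudocount of 0.1 TPM, all 21 libraries in the fit, no trend, a replicate block, median-of-ratios rescaling, no filter or a mean above 5 TPM, and leaving out each library. Tables and drawings used Python 3.11.15 with pandas 2.3.3 and matplotlib 3.10.9.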

Additional observations from a re-analysis of the deposited data

Results flagged for a closer look

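The change from WS_0h differed between WS_10h and WS_8h for 11 PCgenes named above. The WS_0h libraries cancel in this difference, so its test is the limma comparison of WS_10h with WS_8h. The log2 difference, WS_10h minus WS_8h, was 1.59 for Zm00001d010588 (pyruvate decarboxylase1), 1.48 for Zm00001d037689 (hexokinase7), 1.38 for Zm00001d016924 (EIN3-like), 1.5 for Zm00001d027622 (RING finger), 1.63 for Zm00001d012527 and 1.57 for Zm00001d013003 (NAC), 1.27 for Zm00001d031728 (AP2-EREBP), and 1.47 for Zm00001d039065 and 1.05 for Zm00001d041920 (bZIP). Of the PCgenes without a name it was 1.73 for Zm00001d022084 and -2.97 for Zm00001d004310. No single library of 3 can be tested as standing apart from its group.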

How the results depend on the processing

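Against WS_0h, up-regulated PCgenes ran from 1743 to 1915 and down-regulated ones from 1228 to 1641 when 1 library was left out, and a pseudocount of 0.1 TPM gave 2140 and 1950. With the replicate block the counts were 1820 and 1416, and 3204 of 3205 calls remained. Of 745 values of 58 PCgenes under alternatives, 10 changed their call or sign, in 6 genes. These 58 were the 54 named PCgenes tested and the PCgenes without a name described above, which were chosen for their large change. Among the uncalled peroxidases, Zm00001d022282 (log2 difference -0.10) ranged from -0.2952 without WS_0h replicate 3 to 0.08541 without WS_0h replicate 1, and was 0.08337 without WS_10h replicate 3, and Zm00001d022283 (0.13) ranged from -0.04197 without WS_0h replicate 3 to 0.3111 without WS_0h replicate 1.

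Against WS_8h, up-regulated PCgenes ran from 314 to 1007 and down-regulated ones from 99 to 187 with 1 library left out, and a mean above 5 TPM gave 96 down-regulated. The block gave 533 and 124, with 622 of 789 calls kept. Same-numbered libraries of these time points did not deviate together (correlations 0.09, 0.05 and -0.20). The call of Zm00001d004310 was lost without WS_8h replicate 2 (adjusted p 0.0533, limma with Benjamini-Hochberg). Against WS_12h, no alternative gave a call. The cause of these shifts was not tested. TPM carry no depth, so low values have no detection limit.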
